A study of Mus musculus with 4 samples.

Results

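The 10 genes described here make and load MHC class I molecules: the heavy chains H2-K1 and H2-D1, the light chain B2m, the peptide transporter subunits Tap1 and Tap2, the loading chaperone Tapbp (tapasin), the immunoproteasome subunits Psmb8, Psmb9 and Psmb10, and the transactivator Nlrc5. They were chosen by name and not by a cut on their values, but with earlier results of these data known. All 10 were found by symbol among the 34866 genes of the table. Class I molecules carry peptides of the cell's own proteins to its surface, where CD8+ T cells inspect them. The proteasome cuts the peptides, the transporter moves them into the endoplasmic reticulum, and tapasin holds the empty heavy and light chain complex at the transporter until a peptide fits. Immune cells and cells exposed to interferon replace the catalytic subunits Psmb5, Psmb6 and Psmb7 with Psmb8, Psmb9 and Psmb10, and loss of class I expression is a known route by which lymphomas escape T cells.

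RNA was sequenced from B220+ IgM+ splenocytes of 2 mice with IgM+ Tom+ tumors (tumors #1 and #2), with the Tom+ and the Tom- fraction of each as separate libraries, 4 in all. Both mice were λ-MYC Tom+/ki, which carry λ-MYC+/TG, R26tdTom+/ki and a Cre knock-in, and were killed when moribund, at ages that are not stated for these animals. The transgene is a human Burkitt lymphoma MYC gene under Igλ regulatory sequences, and all groups carried it. Cre switches on the Tomato protein for good, so Tom+ cells had expressed Cre at some time and Tom- cells had not been marked. Tom+ and Tom- cells of a tumor came from the same mouse, and each tumor is 1 animal. The series had no normal B cells as a control.

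The values are transcripts per 1000000 (TPM), which are scaled for transcript length and can be compared between genes, and each library sums to 1000000. TPM keeps no record of depth, so the counting error of a value is unknown. Where 4 values of a gene or a ratio stand in a row, they are for the Tom- and then the Tom+ library of tumor #1, followed by the Tom- and the Tom+ library of tumor #2. In bulk RNA, a change in RNA per cell and a change in the share of cells of one kind cannot be told apart. The B cell label matched the defining markers: all 9 B cell genes listed were above the filter on low values, with Cd79a between 120 and 346 TPM. Markers of other cells were at lower levels but not all absent. The 7 genes listed for T cells summed to 12.1 to 64.0 TPM. Cd2 made most of that sum, so the sum is not read as an amount of T cells. The 6 macrophage and monocyte markers summed to 2.405 to 7.94 TPM and the 6 dendritic cell markers to 0.284 to 2.58 TPM. The 4 neutrophil markers summed to 0 to 5.41 TPM and the 4 NK cell markers to 0.0349 to 0.592 TPM. Of their defining genes, Cd3e was at most 0.0687 TPM, and Ncr1, Itgax and Ly6g were listed at 0 in all 4 libraries. Other T cell genes did not all follow Cd3e. Cd3d was at 0.329, 0.0513, 7.77 and 2.09 TPM, and Cd3g at 0, 0.0296, 0.104 and 1.35 TPM. Trac was at 0.767, 1.09, 0 and 0 TPM. Whether T cells were present was not tested. The summed level of the 5 plasma cell markers was 30.2 to 34.7 TPM in 3 libraries and 260.3 TPM in Tom+ cells of tumor #2, where Jchain, which joins IgM and IgA polymers, alone was at 209 TPM. In that library Sdc1 was at 0.428 TPM, Prdm1 at 0.570 TPM, Xbp1 at 21.2 TPM and Irf4 at 29.4 TPM. Mitochondrial genes took 6.61% to 8.67% of TPM in tumor #1 and 14.4% to 15.6% in tumor #2. Pseudogenes took 31.3%, 30.3%, 25.4% and 23.4% of TPM, and immunoglobulin genes 6.28%, 5.70%, 5.35% and 9.76%.

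The promoters of class I genes share short elements through which their transcription is set. Nlrc5 acts on an enhanceosome whose DNA sites include the X2 box, with the core TGACG, and the Y box, with the core ATTGG. Upstream of it, class I heavy chain promoters hold a κB site and an interferon response element bound by IRF proteins. Promoter windows of 250 bases before to 50 bases after the start, from RefSeq on GRCm38.p6, were matched by symbol for 8 of the 10 genes. The stretches that follow show these elements in the genes whose levels are compared, each on the strand of its gene. Capitals mark matches on either strand to both cores, to GAANNGAAA for the IRF element and to GGGNNTTCC for the κB site.
H2-K1, chr17:34000354-34000463, minus strand: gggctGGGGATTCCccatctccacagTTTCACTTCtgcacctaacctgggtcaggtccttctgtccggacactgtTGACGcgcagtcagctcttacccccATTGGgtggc
H2-D1, chr17:35262923-35262952, plus strand: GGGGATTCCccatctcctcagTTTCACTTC
H2-D1, chr17:35262993-35263022, plus strand: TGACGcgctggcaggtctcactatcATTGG
B2m, chr2:122147604-122147643, plus strand: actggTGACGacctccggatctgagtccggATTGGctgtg
Tap1, chr17:34187470-34187499, plus strand: TGACGacagagggtcctgccctcaatctgg

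In H2-K1, H2-D1 and B2m the X2 and Y cores lay 20 bases apart, an arrangement found in 31 of the 32851 windows of the same length (0.0944%), while the single cores were common, with TGACG in 20.8% and ATTGG in 37.4% of windows. The IRF element, in 7.52% of all windows, and the κB site, in 5.82%, were matched in H2-K1 and H2-D1 but in none of the other 6 windows. Over the 110 bases shown for H2-K1, and the same length around the elements of H2-D1, H2-K1 and H2-D1 were identical at 99 bases (90.0%). Tap1 and Psmb9 are transcribed away from each other, with 225 bases between their starts, so their windows share 275 bases and the one TGACG shown for Tap1. CACGTG, the E box bound by MYC and MAX, was matched in Psmb10 alone of the 8 windows, against 7.15% of all windows. The RefSeq start of H2-D1 used here lies 364 bases from the nearest GENCODE start, and that of Psmb8 175 bases, while the other 6 lie within 52 bases. A match of letters is a description of the sequence, not a measured site.

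As levels in TPM, the genes are given in 3 groups, whose ranges overlapped across libraries. B2m (ENSMUSG00000060802, chr2:122147686-122153083 of GRCm38) was the highest in each library. It was at 352, 339, 509 and 543 TPM, and ranked 323 by mean level among the 11339 genes tested. H2-D1 (ENSMUSG00000073411, chr17:35262730-35267499) followed, at 153, 133, 306 and 229 TPM. H2-K1 (ENSMUSG00000061232, chr17:33996017-34000347) was at 77.5, 75.7, 152 and 188 TPM. B2m was above H2-D1 and H2-D1 above H2-K1 in all 4 libraries.

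Psmb8, Psmb9 and Tap2 are the middle group, although Tap2 at its highest (79.8 TPM) was above H2-K1 in tumor #1 (77.5 and 75.7 TPM). Psmb8 (ENSMUSG00000024338, chr17:34197721-34201454), which has the chymotrypsin-like activity, was at 68.5, 66.9, 65.3 and 54.4 TPM. Psmb9 (ENSMUSG00000096727, chr17:34181987-34187764) was at 67.5, 69.1, 61.3 and 57.7 TPM. These 2 subunits were close to each other in every library and changed order between libraries, as did Tap2 (ENSMUSG00000024339, chr17:34203527-34216321) with both of them. Tap2 was at 46.6, 32.9, 79.8 and 45.5 TPM.

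The remaining 4 genes overlapped in level with each other, and some of them with Tap2, across libraries. Psmb10 (ENSMUSG00000031897, chr8:105935735-105938444), the third inducible subunit, was at 31.5, 29.5, 36.1 and 20.2 TPM. Tap1 (ENSMUSG00000037321, chr17:34187553-34197225), the other transporter subunit, was at 20.6, 15.98, 32.0 and 32.5 TPM. Tap2 exceeded Tap1 in all 4 libraries, by 1.40 to 2.50 times, although their proteins pair one to one. Nlrc5 (ENSMUSG00000074151, chr8:94434356-94527272) was at 10.5, 10.4, 20.1 and 38.3 TPM. Tapbp (ENSMUSG00000024308, chr17:33915899-33929292) was at 12.2, 10.4, 25.4 and 19.7 TPM.

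**Figure D1:**
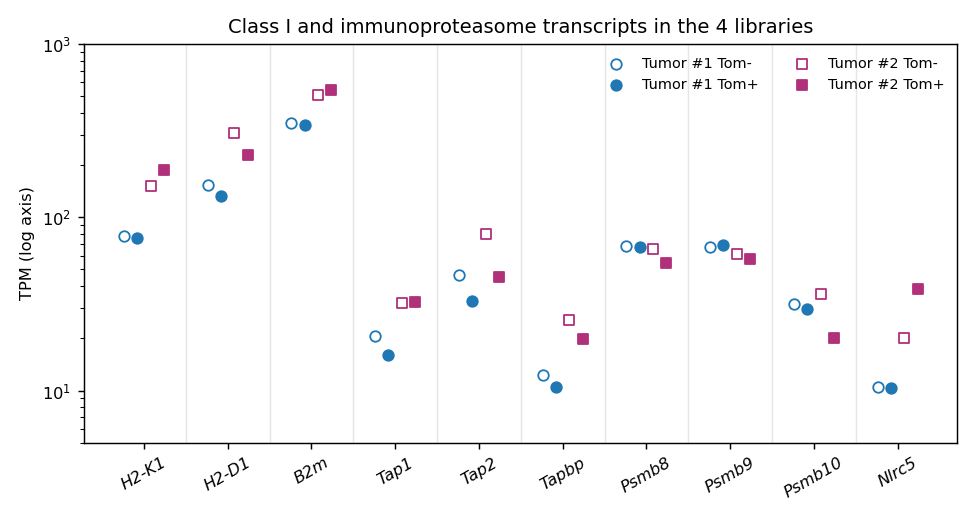
Level of each gene in TPM (log axis) in the 4 libraries, with open symbols for Tom- and filled symbols for Tom+ cells, circles for tumor #1 and squares for tumor #2, 1 point per library. Both tumor #2 libraries lie above both tumor #1 libraries for H2-K1, H2-D1, B2m, Tap1, Tapbp and Nlrc5, and below them for Psmb8 and Psmb9.

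Class I genes form a family of similar sequences, and the reads were 60 bases long. Of the distinct 60-base stretches in the GENCODE M21 transcripts of H2-D1, 8.14% also occur in transcripts of other genes, and of those of H2-K1, 5.89%, with H2-Q1 and H2-Q10 sharing the most. The share was 21.3% for Tapbp, 10.9% for Psmb8, 10.3% for Tap2, 3.88% for Psmb9 and 2.95% for Tap1, the last 2 sharing mostly with each other, 0.220% for Nlrc5, and 0.0% for B2m and Psmb10. How the authors' quantification divided such reads is not known, so part of these levels is uncertain.

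The first comparison asked whether cells marked by Tomato differ in these genes from Tom- cells of the same mouse. In the deposited values, 0 of the 10 genes had an adjusted p-value below 0.05 (limma's moderated test on log2(TPM + 1) with the tumor as a block, Benjamini-Hochberg over all 11339 genes), against a background of 0.0% of all genes tested. At an unadjusted p-value below 0.05 there was 1 of the 10, Tap2, which was lower in Tom+ cells, as 2.64% of all genes were at that threshold, and 530 genes passed it in all (4.67%). The design leaves 1 residual degree of freedom per gene. With 2 pairs, the smallest p-value an exact permutation test allows is 0.5.

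Tap2 was lower in the Tom+ fraction of each tumor. Both Tom+ libraries (32.9 and 45.5 TPM) lay below both Tom- libraries (46.6 and 79.8 TPM), an order that Psmb10 shared with it, 2 of the 10 genes against 9.86% of all genes. The opposite order was found for 0 of the 10 genes and 6.42% of all genes. For Tap2 the log2 fold change was -0.64 (SE 0.16, 95% interval -1.14 to -0.14, limma's adjusted p = 0.936). The change was -0.49 in tumor #1 and -0.80 in tumor #2. Tap1, with which Tap2 forms the transporter, had a log2 fold change of -0.16 (SE 0.19), from -0.35 in tumor #1 and 0.024 in tumor #2. Tapbp was lower in the Tom+ fraction of each tumor (-0.21 and -0.35), with a log2 fold change of -0.28 (SE 0.17, 95% interval -0.80 to 0.24). H2-D1 was also lower in both (-0.19 and -0.42), with -0.31 (SE 0.13, 95% interval -0.72 to 0.10). The adjusted p-value from limma was 0.936 for Tapbp and H2-D1 alike.

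H2-K1 went apart from H2-D1, with -0.033 in tumor #1 and 0.31 in tumor #2 (log2 fold change 0.14, SE 0.16, limma's adjusted p = 0.943). The ratio of H2-D1 to H2-K1 was thus at 1.97, 1.76, 2.02 and 1.21. B2m, the chain both share, had the narrowest estimate of the 10, a log2 fold change of 0.019 (SE 0.12, 95% interval -0.35 to 0.39, limma's adjusted p = 0.995).

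Nlrc5 had the widest estimate, 0.44 (SE 0.30, 95% interval -0.49 to 1.37, limma's adjusted p = 0.936). Its levels were nearly equal in tumor #1 (10.5 TPM in Tom- and 10.4 TPM in Tom+ cells, log2 change -0.016) and far apart in tumor #2 (20.1 and 38.3 TPM, log2 change 0.90), so the estimate rests on tumor #2. The Tom+ library of tumor #2 is the one with the high Jchain level given above, beside Sdc1 and Prdm1 below 1 TPM. Whether cells with Jchain had a part in the Nlrc5 value was not tested.

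Among the immunoproteasome genes, Psmb10 was lower in the Tom+ fraction of each tumor, mainly in tumor #2 (-0.093 and -0.81), and its Tom+ libraries (29.5 and 20.2 TPM) lay below its Tom- libraries (31.5 and 36.1 TPM). Its log2 fold change was -0.45 (SE 0.25, 95% interval -1.21 to 0.31, limma's adjusted p = 0.936). Psmb8 had -0.15 (SE 0.15), from -0.033 and -0.26. Psmb9 had -0.027 (SE 0.14), from 0.033 and -0.087, a sign that turned with 2 of the scalings of the libraries. Over the 10 genes, limma's adjusted p lay between 0.936 and 0.995.

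Over the 10 genes, the median log2 fold change was -0.15, with -0.074 in tumor #1 and -0.17 in tumor #2, beside -0.033 over all genes tested. Comparing fractions in each tumor, 5 genes were lower in both pairs (29.5% of all genes), 0 were higher in both (21.6%) and 5 went in opposite directions (47.3%).

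**Figure D2:**
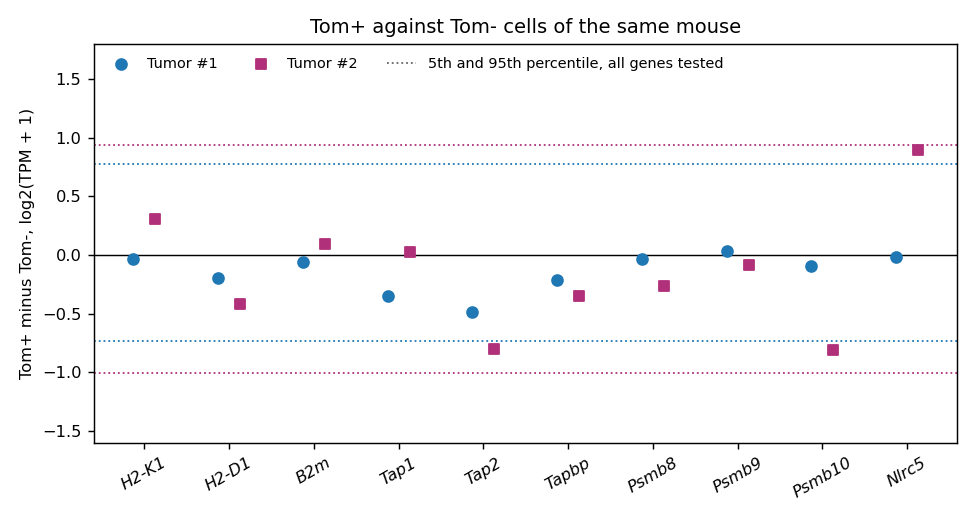
Difference between Tom+ and Tom- cells of the same mouse in log2(TPM + 1), 1 point per tumor for each gene, with dotted lines at the 5th and 95th percentiles over all 11339 genes tested in that tumor. In tumor #1 all 10 genes lie between the lines (-0.74 and 0.77), as they do in tumor #2 (-1.002 and 0.94), where Nlrc5, Tap2 and Psmb10 come nearest to them.

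Ratios between genes of the same library do not depend on how libraries are scaled, and those of each inducible subunit to the constitutive subunit it replaces describe the makeup of the proteasome at the RNA level. The ratio of Psmb8 to Psmb5 was above 1 in all libraries, at 1.28, 1.30, 1.75 and 1.69. Psmb9 to Psmb6 was below 1, at 0.747, 0.780, 0.901 and 0.959. For these 2 pairs the tumors did not overlap, and Tom+ and Tom- cells of a tumor differed by at most 0.089 in log2 ratio. Psmb10 to Psmb7 was the lowest, at 0.258, 0.224, 0.372 and 0.215, with lower values in Tom+ cells of both tumors (log2 difference -0.21 and -0.79).

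Together the 3 inducible subunits took 38.6% and 37.8% of the summed TPM of the 6 catalytic subunits in tumor #1 and 44.6% and 41.5% in tumor #2. Their own sum was 168, 166, 163 and 132 TPM, so the higher share in tumor #2 went with lower levels of the constitutive subunits. Psmb5 was at 53.6, 51.5, 37.4 and 32.3 TPM, Psmb6 at 90.3, 88.6, 68.0 and 60.1 TPM, and Psmb7 at 122, 132, 97.0 and 93.9 TPM. Of the 60-base stretches of Psmb5, 46.8% occur in transcripts of other genes, so its level is less certain than those of Psmb6 (0.521%) and Psmb7 (8.69%).

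**Figure D3:**
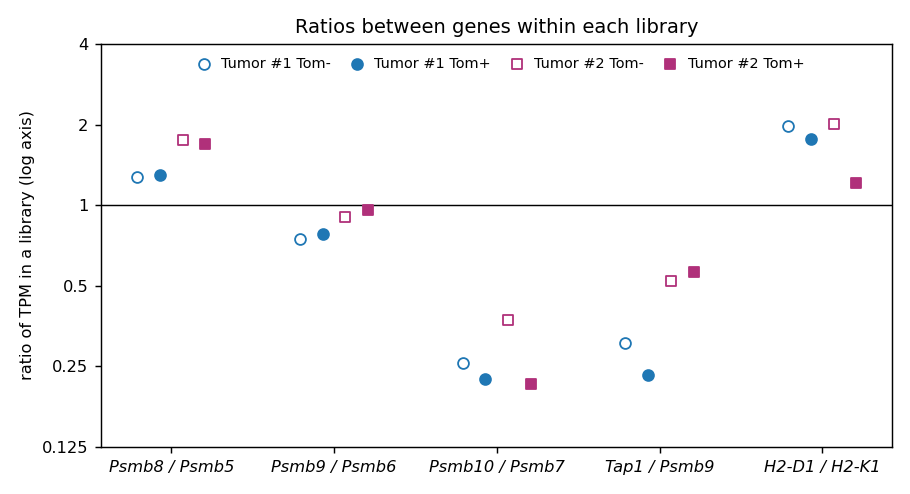
Ratios of TPM between named genes within each library (log axis, line at 1), with open symbols for Tom- and filled for Tom+ cells, circles for tumor #1 and squares for tumor #2. Psmb8 to Psmb5, Psmb9 to Psmb6 and Tap1 to Psmb9 are higher in both tumor #2 libraries, while H2-D1 to H2-K1 is set apart in Tom+ cells of tumor #2 at 1.21.

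Differences between the tumors in the same fraction reached 1.78 on the log2 scale, beside at most 0.90 between fractions of the same tumor, both for Nlrc5. With 1 mouse per tumor they cannot be tested, and they are given as values in both fractions. H2-K1 was 1.96 times higher in tumor #2 in Tom- cells and 2.49 times in Tom+ cells, H2-D1 2.00 and 1.71 times, and B2m 1.44 and 1.60 times. Tap1 was 1.55 and 2.04 times higher and Tapbp 2.08 and 1.89 times. Nlrc5 was 1.91 times higher in Tom- cells and 3.68 times in Tom+ cells. Tap2 was higher as well, 1.71 and 1.38 times, but Tom+ cells of tumor #2 (45.5 TPM) were just below Tom- cells of tumor #1 (46.6 TPM).

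The immunoproteasome genes were lower in tumor #2, except for Psmb10 in Tom- cells. Psmb8 in tumor #2 was at 0.954 and 0.813 of its level in tumor #1 in Tom- and Tom+ cells, Psmb9 at 0.908 and 0.835, and Psmb10 at 1.14 and 0.685. In all, both tumor #2 libraries were above both tumor #1 libraries for 6 of the 10 genes and below them for 2, where 44.8% and 23.7% of all genes had these orders. A tumor difference in these orders is therefore common in the table. The median difference over the 10 genes was 0.70 on the log2 scale, beside 0.20 over all genes tested (0.69 in Tom- and 0.73 in Tom+ cells for the 10 genes), and it was 0.89 over the 7 genes outside the immunoproteasome. That split leaves out the 3 genes with a negative mean difference (Psmb8, Psmb9 and Psmb10), so its median could only be higher. With trimmed-mean scaling of the libraries, which moved the median of all genes to -0.0054, the 10 genes had a median of 0.47 and the 7 genes stayed above 0 in both fractions, as they did with each of the other scalings.

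Tap1 and Psmb9, which lie on either side of the same stretch of DNA, parted between the tumors. The ratio of Tap1 to Psmb9 was at 0.305, 0.231, 0.522 and 0.564. The heavy chains H2-K1 and H2-D1 together, relative to B2m, were at 0.654, 0.617, 0.901 and 0.768. The B cell markers moved with this result: all 9 were higher in both tumor #2 libraries (44.8% of all genes), with summed levels of 2300 to 2461 TPM in tumor #1 and 5137 to 6005 TPM in tumor #2 and a median difference of 1.28 on the log2 scale. Ms4a1, which encodes CD20, was at 32.9, 20.5, 263 and 209 TPM and was the 1 B cell marker with an unadjusted p-value below 0.05 between fractions (log2 fold change -0.49, SE 0.16, limma's adjusted p = 0.936). Between fractions, 7 of the 9 were lower in Tom+ cells of both tumors (29.5% of all genes) and 0 higher (21.6%). Their median log2 fold change was -0.25, beside -0.033 over all genes tested. The summed T cell markers were at 16.7, 12.1, 64.0 and 58.8 TPM. Cd2 made most of that sum (15.5, 10.6, 55.7 and 54.9 TPM), Cd3d was at 0.329, 0.0513, 7.77 and 2.09 TPM, and Cd3e was at or near 0. Cd2 was higher in both tumor #2 libraries, as all 9 B cell markers were, and its sum is not read as an amount of T cells. The summed macrophage markers were at 2.405, 4.71, 7.94 and 7.04 TPM, mostly Cd68 (1.92, 4.11, 4.58 and 6.41 TPM), with Cd14 at 0. The summed neutrophil markers were at 0.239, 0, 5.41 and 0 TPM, where the value of Tom- cells of tumor #2 came from S100a8 and S100a9. Erythroid markers summed to 19.2, 16.3, 0.0963 and 0.967 TPM, nearly all from Hbb-bs. Mitochondrial genes took a higher share of TPM in tumor #2 and pseudogenes a lower one, as given above. The part of these in the class I difference was not tested.

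**Figure D4:**
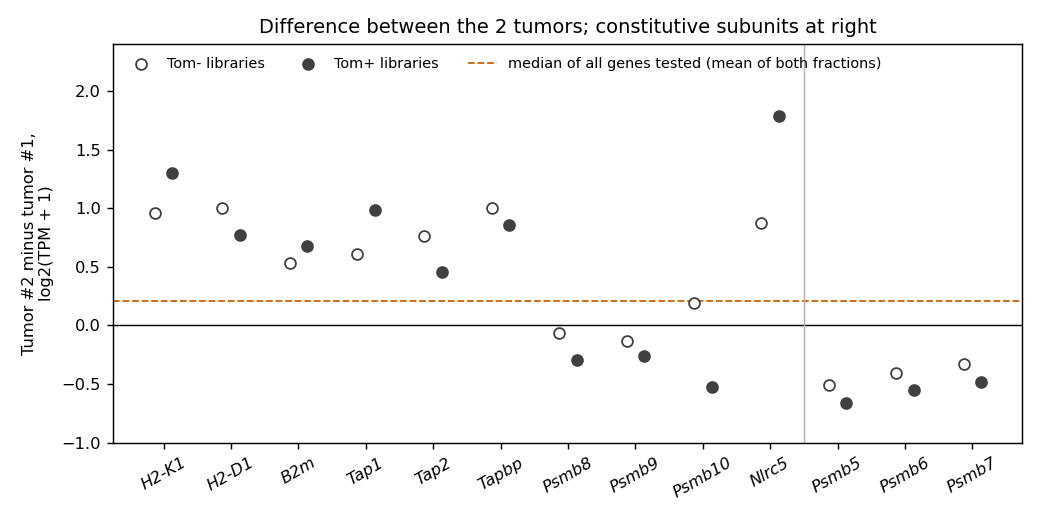
Difference between tumor #2 and tumor #1 in log2(TPM + 1), in Tom- (open) and Tom+ (filled) libraries, for the 10 genes and, right of the line, the 3 constitutive subunits, with a dashed line at the median of all genes tested (0.20). The 7 genes of chains, transporter, tapasin and transactivator lie above the dashed line in both fractions, and the immunoproteasome and constitutive subunits below it.

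The other genes of the pathway were described from lists written from general knowledge. In none of them did a gene pass an adjusted p-value of 0.05 between Tom+ and Tom- cells (0.0% of all genes). Of 20 listed regulators of class I transcription, all were tested, and 15 were higher in both tumor #2 libraries (44.8% of all genes) and 0 lower (23.7%). Irf1, which binds the IRF element, was at 4.997, 4.78, 16.6 and 18.1 TPM. Rfx5, a DNA-binding part of the enhanceosome, was at 7.38, 7.87, 16.4 and 22.5 TPM. Both of these regulators were higher in tumor #2 in both fractions, as Nlrc5 was. The tumors overlapped for the other 5 regulators. These were Irf2, Irf3, Nfyb, Nfyc and Atf1, with mean tumor differences of 0.34, -0.10, -0.065, 0.010 and 0.12 on the log2 scale.

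Ciita, the transactivator of class II genes and a relative of Nlrc5, differed less between the tumors, at 7.17, 4.64, 8.54 and 7.38 TPM. Between Tom+ and Tom- cells the regulators had a median log2 fold change of 0.00098, beside -0.033 over all genes. Irf8, a factor of B and myeloid cells, was the 1 regulator with an unadjusted p-value below 0.05, lower in the Tom+ fraction of each tumor (25.2 to 18.9 TPM and 71.6 to 45.5 TPM, log2 fold change -0.52, SE 0.16, limma's adjusted p = 0.936). Nfyb, which binds the Y box, had the largest value, 0.56 (SE 0.20), from 0.32 and 0.79.

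Of 30 other interferon-stimulated genes, 28 were tested. Of these, 26 were higher in both tumor #2 libraries (44.8% of all genes) and 0 lower (23.7%), with a median difference of 1.501 on the log2 scale. A number of them, such as Zbp1, Gbp4, Ifit3 and Mx1, were below 1 TPM in both tumor #1 libraries. Such genes passed the filter on low values only through tumor #2 and could only be higher there, which limits the count and the median. Between Tom+ and Tom- cells the 28 genes had a median log2 fold change of -0.039. In the Tom+ fraction of each tumor 3 were higher (21.6% of all genes) and 8 lower (29.5%), the latter near the share over all genes. Ifih1, a sensor of double-stranded RNA, was at 2.46, 0.653, 2.92 and 0.581 TPM (log2 fold change -1.19, SE 0.24, limma's adjusted p = 0.936). It was the 1 gene of this list with an unadjusted p-value below 0.05. Rsad2, an antiviral enzyme, was at 0.0356, 0.0768, 1.28 and 8.54 TPM (log2 fold change 1.06, SE 0.61).

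Of 10 interferon receptor and kinase genes 9 were tested, and 6 were higher in both tumor #2 libraries, as 44.8% of all genes were. Usp18, a feedback inhibitor of the type I interferon receptor, was the 1 with an unadjusted p-value below 0.05, at 1.08, 0.178, 4.44 and 1.02 TPM (log2 fold change -1.13, SE 0.29, limma's adjusted p = 0.936). Jak1, a kinase of these receptors, had a log2 fold change of -0.49 (SE 0.17).

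Of 19 other class I genes, 18 were in the table and 11 were tested, and 10 were higher in both tumor #2 libraries (44.8% of all genes), with a median difference of 0.96 on the log2 scale. The 10 include H2-T22, which differed by 0.17 in Tom- and 0.033 in Tom+ cells. H2-Q6 and H2-Q10 were below 1 TPM in both tumor #1 libraries and passed the filter on low values only through tumor #2. Shared sequence also makes several levels uncertain. Of the 60-base stretches, 47.5% for H2-T22, 43.7% for H2-T10, 28.6% for H2-Q4 and 28.5% for H2-Q6 occur in transcripts of other genes, against 1.79% for H2-T24. H2-T24 was at 1.74, 0.897, 11.7 and 8.51 TPM. H2-Q10 was at 0.362, 0.812, 1.43 and 2.44 TPM. Between Tom+ and Tom- cells 0 of the 11 had an unadjusted p-value below 0.05 (4.67% of all genes), with 4 higher (21.6%) and 3 lower (29.5%) in both tumors.

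The proteasome and loading lists differed in the other direction or little between the tumors. Of 11 other core subunits, 0 were higher (44.8% of all genes) and 6 lower (23.7%) in both tumor #2 libraries, with a median difference of -0.15. Psma4 had a log2 fold change of -0.64 (SE 0.26) in Tom+ cells and Psma3 of 0.33 (SE 0.13). Of 10 tested activator and assembly genes 1 was higher and 5 were lower in both tumor #2 libraries, against the same shares. Psme1, of the interferon-inducible PA28 activator, had a log2 fold change of -0.32 (SE 0.15) in Tom+ cells and Pomp, a proteasome assembly factor, of -0.23 (SE 0.14).

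Of 14 loading and trimming genes 5 were higher (44.8% of all genes) and 7 lower (23.7%) in both tumor #2 libraries. Tapbpl, a relative of tapasin that edits peptides, was at 6.21, 6.51, 5.24 and 2.15 TPM, and Uggt1, which re-glucosylates unfolded glycoproteins, at 42.8, 38.5, 48.5 and 28.8 TPM. Among 9 cytosolic peptidases Npepps was higher in the Tom+ fraction of each tumor (35.7 to 50.9 TPM and 38.0 to 55.2 TPM, log2 fold change 0.51, SE 0.14, limma's adjusted p = 0.936), the 1 gene of that list with an unadjusted p-value below 0.05, and Blmh had -0.31 (SE 0.14).

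**Figure D5:**
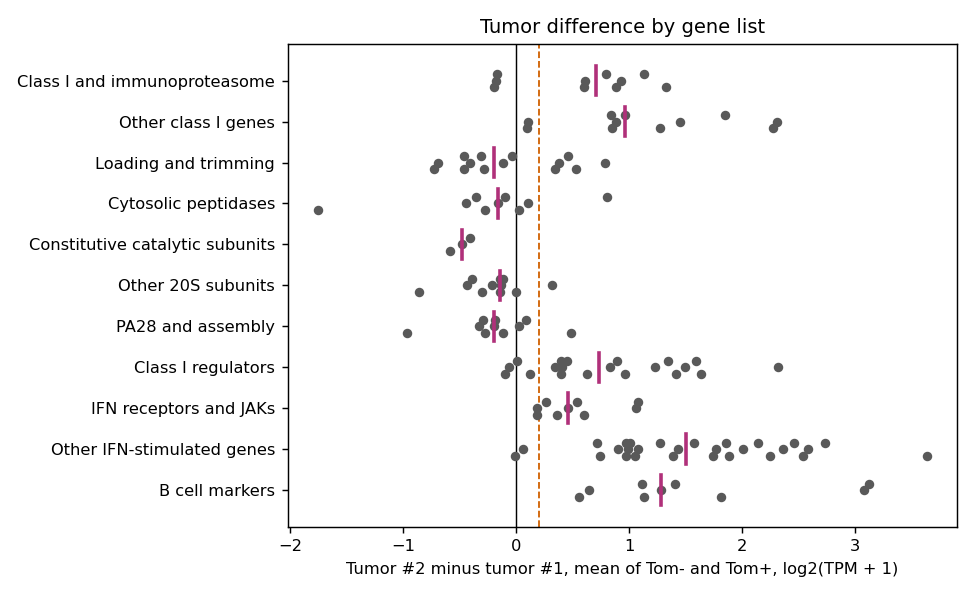
Difference between tumor #2 and tumor #1, as the mean of Tom- and Tom+ libraries in log2(TPM + 1), for every tested gene of each list (points), with a bar at the list's median and a dashed line at the median of all genes tested (0.20). The other class I genes (median 0.96), the regulators (0.73), the other interferon-stimulated genes (1.501) and the B cell markers (1.28) have medians to the right of the dashed line, and the constitutive subunits (-0.48) have theirs to its left. Some of the other interferon-stimulated and other class I genes passed the filter on low values only through tumor #2.

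Over the 4 libraries, the 5 protein-coding genes whose centered log2(TPM + 1) lay nearest to the mean profile of the 10 genes were Zc3h11a, Golga7, Ddx54, Tm9sf3 and Tbl1xr1, at Euclidean distances of 0.031 to 0.047. Among 3796 candidate genes, 106 were nearer to that profile than B2m, the nearest of the 10 (0.18), so 4 libraries do not single out a pattern.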

How the data were processed

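Per the labels and the study's methods, the authors made FastQ files with CASAVA 1.8, trimmed 60-base single reads with Cutadapt, dropped reads under 30 bases, estimated transcript abundance with Salmon 1.9 against mouse transcripts (GRCm38), and deposited gene-level TPM. How transcripts were summed to genes is not given in the sources used here. TPM is relative to all other transcripts of a library, so large changes in a few abundant genes move every value. Symbols and positions were matched to GENCODE M21 (GRCm38) for 34652 of 34866 identifiers, and promoter windows were taken from RefSeq on GRCm38.p6. The methods name an earlier annotation release than some identifiers appear to need, so it is unclear which release the authors used.

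Values were analyzed as log2(TPM + 1) for 11339 genes, those that reached 1 TPM in 2 or more libraries. This scale understates changes of genes with low TPM. Tom+ and Tom- cells were compared using limma 3.58.1 (R 4.3.3), whose terms were the tumor and Tom status, as in the authors' paired design, a variance trend (prior degrees of freedom 2.21) and Benjamini-Hochberg adjustment over all genes at 0.05. edgeR, which the authors used, needs counts and was not run. With its paired test the authors did report genes that differed between Tom+ and Tom- cells at an adjusted p-value below 0.05. The 0 genes found here are thus a result of this test on TPM with few degrees of freedom. The numbers pair the samples, because both fractions of a tumor were sorted from 1 mouse, and across genes their deviations from the group means correlated (Pearson's r = 0.626, Spearman's rho = 0.669). The p-values rest on these 4 libraries only and do not extend to other mice. The block removes the tumor difference, and each gene's variance is drawn toward a trend over all genes. Tumors were compared as values without a test. The script was tested on simulated data. Python 3.11.15 with pandas 2.3.3, numpy 2.4.6 and matplotlib 3.10.9 was used for tables and plots.

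The 10 genes and all lists were chosen with earlier results of these data known. Genes named were the 10, the constitutive subunits, regulators and B cell markers set in advance of this fit, in each list the genes with an unadjusted p-value below 0.05 and the 2 with the largest absolute change, and the 5 nearest in profile, among genes averaging 20 TPM or more. The promoter motifs, the ratios of Tap1 to Psmb9, Tap2 to Tap1, H2-D1 to H2-K1 and heavy chains to B2m, Jchain, Hbb-bs, and the markers of other cell types named singly were chosen after values were seen. Alternatives were no block, other pseudocounts, other filters, trimmed-mean scaling, quantile normalization, scaling to protein-coding genes without immunoglobulin and mitochondrial genes, no variance trend, a robust prior and leaving out tumors or libraries. Some named regulators, markers and alleles are not reported here.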

Additional observations from a re-analysis of the deposited data

Results flagged for a closer look

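For 5 of the 10 genes, Tom+ cells were above Tom- cells in one tumor and below them in the other, and the difference was not tested, since each tumor gives 1 pair. The change in tumor #2 minus that in tumor #1, on the log2 scale, was 0.91 for Nlrc5 (-0.016 in tumor #1 and 0.90 in tumor #2), 0.37 for Tap1 (-0.35 and 0.024), 0.34 for H2-K1 (-0.033 and 0.31), 0.15 for B2m (-0.055 and 0.094) and -0.12 for Psmb9 (0.033 and -0.087). Of all genes tested, 47.3% had opposite signs in the tumors. The log2 ratio of Psmb8 to Psmb5 also went in opposite directions (0.026 and -0.054), a difference of -0.080.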

How the results depend on the processing

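The adjusted p-values of the 10 genes stayed above 0.05 under every alternative that gave a test, between 0.913 and 1.0, and 0 genes of the table passed. Without the replicate block, unadjusted p-values below 0.05 fell from 530 to 140 genes. At the adjusted threshold 0 genes passed with or without the block, so no call among the 10 could differ. Psmb9 turned from -0.027 to 0.0014 with trimmed-mean scaling and to 0.029 with scaling to protein-coding genes. Leaving out 1 tumor gives the other tumor's value with no test, and leaving out 1 library was possible only without the block, with the lone library assumed to vary like the others, so the tumor difference enters those values. Over these, the number of genes with an unadjusted p-value below 0.05 ranged from 113 to 256, and the median of the 10 genes from -0.48 to 0.17. The log2 fold change ranged from -0.51 to 0.79 for H2-K1, -0.81 to 0.19 for H2-D1, -0.32 to 0.36 for B2m, -0.65 to 0.33 for Tap1, -0.78 to 0.22 for Tapbp, -0.29 to 0.00066 for Psmb8, -0.16 to 0.10 for Psmb9 and -0.45 to 1.33 for Nlrc5. The lowest values came without Tom+ cells of tumor #2 for H2-K1, B2m, Tap1, Nlrc5 and the median, the highest without Tom+ cells of tumor #1 for H2-K1, B2m, Tap1 and Nlrc5 and for the 256 genes, while H2-D1 and Tapbp ranged between leaving out Tom- cells of tumor #1 and of tumor #2, and Psmb8 and Psmb9 between leaving out Tom+ cells of tumor #1 and of tumor #2. Tap2 stayed negative in each, from -1.03 to -0.26, as did Psmb10, from -0.81 to -0.093. The median tumor difference of the 10 genes, 0.70 as deposited, was 0.47 with trimmed-mean scaling, 0.61 with quantile normalization and 0.78 with scaling to protein-coding genes. TPM carries no depth, so no limit of detection can be stated.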
